A study of Mus musculus with 6 samples.

Results

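The genes described here are 30 genes of cholesterol synthesis, uptake, intracellular transport, export and their control by the transcription factor SREBP-2, chosen by name from what is known of the pathway. Of the 30 genes, 27 were read, each by 1 of the 22206 probe sets of the mouse Clariom S array, a microarray that reads 1 summary value per gene. The other 3 genes, Acat2, Tm7sf2 and Soat2, had no probe set with that symbol alone in the gene table used here. Probe sets with more than 1 symbol were not used. Expression was measured in 6 samples, 3 from AAV-PIK3CD mice (arrays 51, 52 and 53) and 3 from AAV-control mice (arrays 48, 49 and 50). The comparison asked which transcripts differ in the liver when Pik3cd, the catalytic delta subunit of the lipid kinase PI3K, is supplied to hepatocytes.

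Both groups were male C57BL/6 mice that had been given an adeno-associated virus of serotype AAV8, a vector with a tropism for the liver, with the hepatocyte promoter TBG in front of its insert. AAV-PIK3CD mice had received mouse Pik3cd. AAV-control mice had received EGFP, a fluorescent protein, according to the description of the vectors, or an empty vector according to the labels. The vectors were given at 8 weeks of age and the mice were killed at 12 weeks, with food freely available. The hour of killing and the last meal are not given in the sources used here. The labels name the tissue as tumour, and the study elsewhere describes mouse liver. Hepatocyte markers were high on every array, with 9 of 9 measured markers above the array median and list means of 12.27, 12.23 and 12.21 in AAV-PIK3CD arrays 51, 52 and 53, against 12.20, 12.27 and 12.28 in AAV-control arrays 48, 49 and 50 (log2). Pik3cd read 4.78, 5.14 and 4.86 in AAV-PIK3CD and 4.66, 4.34 and 4.48 in AAV-control, a difference of 0.43 (SE 0.14; adjusted p = 0.676 by rank products and 0.932 by limma), and it is not known here if its probes read the transcript of the vector. The labels do not say that the samples of a group came from separate mice, so p-values measure only the spread between these samples, which may be technical.

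Cholesterol is made from acetyl-CoA by a chain of enzymes that first form mevalonate, then isoprenoid units, then squalene and lanosterol, and at last cholesterol itself. In the endoplasmic reticulum, SREBP-2 is held as a precursor by SCAP and the INSIG proteins as long as sterols are plentiful. When sterols are scarce SCAP escorts it to the Golgi, where it is cut, and its released part enters the nucleus and raises nearly every gene of the chain. Oxidised sterols act in the opposite sense through the nuclear receptor LXR, which raises the export pump ABCG5/ABCG8 and the ligase MYLIP. The liver is a main site of this synthesis and sends cholesterol out in lipoproteins and bile.

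The promoters were searched on both strands for the sterol regulatory element in the form TCACNCCAC, a site that SREBP-2 binds. They were also searched for CCAAT, the site of its usual partner NF-Y. Each window held the 300 bases from 250 before to 50 after a start (RefSeq, build GRCm38.p6). Of the 30 genes, 24 had such a window, and several had more than 1. The element was found in 1 gene of the 24, Hmgcs1, against 1.44% of all 27025 genes with a window. CCAAT was found in 22 of the 24, and in 14 of 15 synthesis enzymes, against 41.1% of all genes. These shares describe letters in a window, and genes with several windows had more chances to hold a motif. Only exact matches were counted, so a window without TCACNCCAC may still hold a site of SREBP-2 with other letters. The windows of Hmgcs1, Lss and Insig1 are shown because the first holds both motifs and had the highest difference of the enzymes, the second is the other gene with an unadjusted p under 0.05, and the third belongs to the retention protein that the data place lowest; the last 2 were chosen after their values were seen. Capitals mark TCACCCCAC and ATTGG, which is CCAAT on the other strand.
Hmgcs1, chr13:119690101-119690400, plus strand: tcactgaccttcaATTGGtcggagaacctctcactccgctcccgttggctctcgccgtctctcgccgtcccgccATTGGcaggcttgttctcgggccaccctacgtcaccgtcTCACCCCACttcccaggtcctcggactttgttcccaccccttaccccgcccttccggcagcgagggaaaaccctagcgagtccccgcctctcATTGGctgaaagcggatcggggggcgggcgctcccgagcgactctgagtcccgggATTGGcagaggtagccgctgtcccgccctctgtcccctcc
Lss, chr10:76531355-76531654, plus strand: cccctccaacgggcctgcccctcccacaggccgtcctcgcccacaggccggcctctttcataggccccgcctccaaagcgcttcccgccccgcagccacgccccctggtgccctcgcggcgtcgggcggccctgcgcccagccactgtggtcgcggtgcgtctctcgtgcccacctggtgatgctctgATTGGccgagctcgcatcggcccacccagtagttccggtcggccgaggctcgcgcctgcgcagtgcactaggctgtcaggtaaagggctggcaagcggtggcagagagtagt
Insig1, chr5:28071162-28071461, plus strand: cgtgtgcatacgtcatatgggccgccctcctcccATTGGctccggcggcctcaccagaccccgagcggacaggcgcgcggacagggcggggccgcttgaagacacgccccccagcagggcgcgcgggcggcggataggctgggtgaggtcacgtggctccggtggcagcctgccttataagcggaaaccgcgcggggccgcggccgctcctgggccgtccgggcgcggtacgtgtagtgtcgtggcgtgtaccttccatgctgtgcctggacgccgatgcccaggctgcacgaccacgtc
In Hmgcs1 the element began 137 bases before the start, and ATTGG began 237, 176 and 45 bases before it and 10 bases after it. Lss held ATTGG 62 bases before its start and Insig1 216 bases before its start, and neither held TCACNCCAC in this window.

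Across the whole pathway no measured gene passed the test of a difference between AAV-PIK3CD and AAV-control. Of the 27 genes, 0 passed an adjusted p of 0.05 by rank products, which the array methods of the study use, and 0 by limma. Before adjustment 2 genes had a p under 0.05 by rank products, Hmgcs1 and Lss, both on the higher side, and 0 by limma. Over all probe sets rank products called 0.0045% higher and 0.036% lower after adjustment, limma called 0%, and the unadjusted shares were 5.7% by rank products, of which 2.85% were higher, and 5.08% by limma. The mean of AAV-PIK3CD lay above that of AAV-control in 22 of the 27 genes and below it in 4 (Sc5d, Scap, Insig1 and Tmem97), with Stard4 level, where 47.7% of all probe sets lay above. The median difference of the 27 genes was 0.09 on the log2 scale (range -0.14 to 0.37), against -0.01 over all probe sets. In 0 of the 27 genes did the groups fail to overlap, against 9.44% of all probe sets.

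The count of genes above the control mean rested on single arrays. Without array 48 it was 14 of 27 with a median difference of 0.00, and without array 53 it was 15 with a median of 0.01. Without array 50 the median was 0.24. With arrays 48 and 51 left out together, it was 18 with a median of 0.04.

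**Figure D1:**
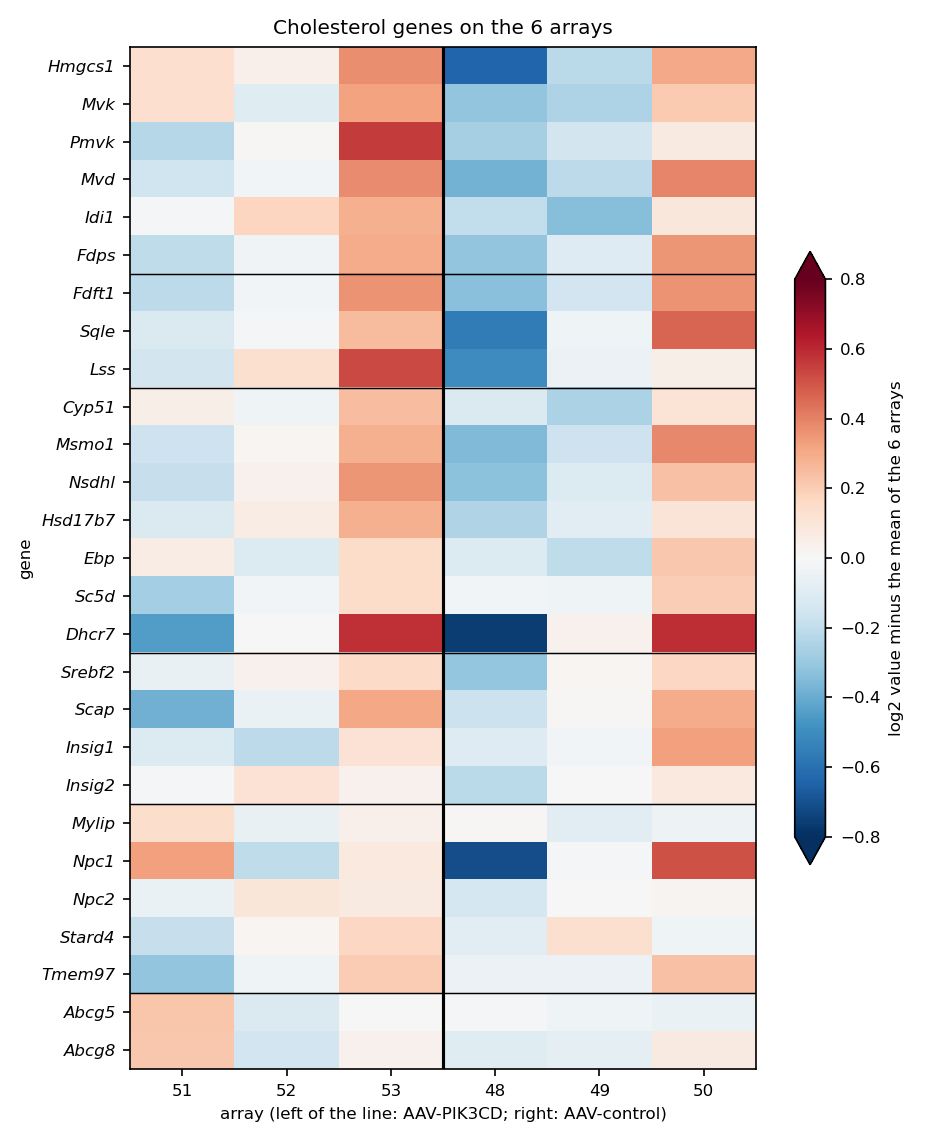
RMA log2 value of each of the 27 measured genes (rows, by role) on the 6 arrays (columns), as the difference from that gene's mean over the 6 arrays, with AAV-PIK3CD left of the line and AAV-control right of it. Red is above and blue below the mean of the gene. Arrays 53 and 50, 1 in each group, are red for nearly every synthesis enzyme, and arrays 51 and 48 are blue for most.

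Of the enzymes that lead from acetyl-CoA to farnesyl diphosphate, 6 of the 6 measured lay above the control mean, with a median of 0.23 and a range of 0.04 to 0.37. The groups of steps were not tested against each other. Hmgcs1, which condenses acetyl groups into HMG-CoA, read 11.46, 11.37 and 11.70 in AAV-PIK3CD arrays 51, 52 and 53, and 10.69, 11.11 and 11.63 in AAV-control arrays 48, 49 and 50. The AAV-PIK3CD arrays were close to each other, and the control arrays spanned 0.94, or 1.92-fold, with array 50 inside the AAV-PIK3CD range. Its difference of 0.37 (SE 0.21, 95% interval -0.10 to 0.83, 1.29-fold) had an unadjusted p of 0.0157 and an adjusted p of 0.746 by rank products, and an adjusted p of 0.932 by limma. The exact permutation test of its 6 values gave p = 0.3 (2-sided, smallest possible value 0.1). Without array 48 the difference was 0.14 and without array 50 it was 0.61.

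Idi1, which turns isopentenyl diphosphate into its reactive isomer, read 9.78, 9.96 and 10.07 in AAV-PIK3CD and 9.59, 9.45 and 9.88 in AAV-control. Only the control array 50 reached into the AAV-PIK3CD values, and the difference was 0.30 (SE 0.14, 95% interval -0.02 to 0.62). Mvk and Pmvk, the kinases that phosphorylate mevalonate in turn, differed by 0.24 (SE 0.17) and 0.23 (SE 0.19). Pmvk read 7.91, 8.15 and 8.70 in AAV-PIK3CD and 7.87, 7.99 and 8.21 in AAV-control, so that array 53 alone lay above every control, and without that array its difference was 0.0067. Mvd, the decarboxylase that closes the mevalonate steps, differed by 0.13 (SE 0.21). Fdps, which joins isoprenoid units into farnesyl diphosphate, had the lowest difference of the 6 at 0.04 (SE 0.19). It read 8.08, 8.26 and 8.58 in AAV-PIK3CD and 7.97, 8.18 and 8.64 in AAV-control, with a range of 0.50 in AAV-PIK3CD and 0.67 in AAV-control.

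At the squalene and lanosterol steps 3 of 3 enzymes lay above the control mean, with a median of 0.09. Fdft1, which fuses farnesyl units into squalene, read 9.17, 9.36 and 9.74 in AAV-PIK3CD and 9.05, 9.23 and 9.74 in AAV-control, a difference of 0.08 (SE 0.20). Sqle, the epoxidase that is a main point of flux control, read 8.05, 8.16 and 8.42 in AAV-PIK3CD and 7.61, 8.13 and 8.63 in AAV-control. The control arrays alone covered more than the AAV-PIK3CD range of Sqle on either side, spanning 2.03-fold, and its difference was 0.09 (SE 0.22, 95% interval -0.41 to 0.58). Lss, which cyclises the epoxide to lanosterol, read 8.24, 8.51 and 8.91 in AAV-PIK3CD and 7.88, 8.34 and 8.43 in AAV-control. Here arrays 52 and 53 lay above all controls and array 51 lay inside the control range. The difference of Lss was 0.34 (SE 0.19, 1.26-fold), with an unadjusted p of 0.0278 and an adjusted p of 0.828 by rank products and an adjusted p of 0.932 by limma. It was 0.16 without array 53 and 0.17 without array 48.

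From lanosterol to cholesterol 6 of 7 enzymes lay above the control mean, with a median of 0.09 and a range of -0.10 to 0.17. Cyp51, the demethylase that acts on lanosterol, had the highest difference of them. It read 9.98, 9.90 and 10.18 in AAV-PIK3CD and 9.82, 9.68 and 10.04 in AAV-control, a difference of 0.17 (SE 0.14). Sc5d, a sterol desaturase, was the only enzyme below its control mean and read 11.72, 11.97 and 12.14 in AAV-PIK3CD and 11.97, 11.96 and 12.19 in AAV-control, a difference of -0.10 (SE 0.14). That sign came from array 51, and without it the difference was 0.015. Msmo1 and Nsdhl, which strip methyl groups from the ring, differed by 0.09 (SE 0.19) and 0.13 (SE 0.18), the sterol ketone reductase Hsd17b7 by 0.15 (SE 0.14) and the isomerase Ebp by 0.06 (SE 0.14).

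Dhcr7, the reductase of a last step to cholesterol, varied more between arrays of 1 group than any other synthesis enzyme measured. It read 7.80, 8.25 and 8.83 in AAV-PIK3CD and 7.49, 8.28 and 8.84 in AAV-control, named after its values were seen. The arrays of AAV-PIK3CD spanned 2.04-fold and those of AAV-control 2.55-fold, while the group means differed by 0.09 (SE 0.32). Over the 16 enzymes the median range within a group was 0.44 in AAV-PIK3CD and 0.56 in AAV-control, against 0.29 and 0.28 over all probe sets. In 14 of the 16 the group difference was smaller than the range within either group, where 74.7% of all probe sets had this property.

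**Figure D2:**
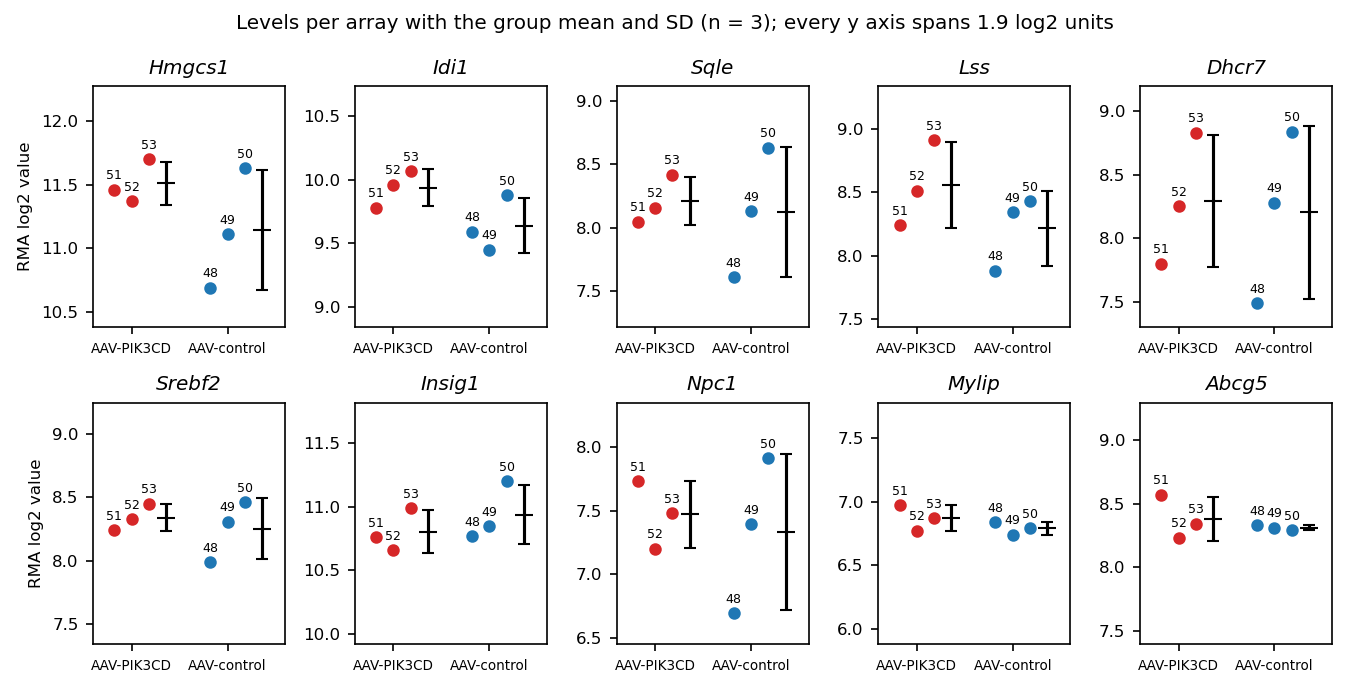
RMA log2 values of 10 genes on the 6 arrays (points, with array numbers), AAV-PIK3CD in red at left and AAV-control in blue at right, with the group mean and SD (n = 3) as a black mark and bar; each panel spans the same number of log2 units. In Hmgcs1, Sqle and Dhcr7 arrays 50 and 53 are the highest of their groups, and array 48 is the lowest control.

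The control genes of the pathway were split, with Srebf2 and Insig2 above the control mean and Scap and Insig1 below it, and a median difference of 0.00 over the 4. Srebf2, which codes for SREBP-2 and is itself raised by it, read 8.24, 8.33 and 8.45 in AAV-PIK3CD and 7.99, 8.31 and 8.46 in AAV-control, a difference of 0.09 (SE 0.14). Only array 48 stood below the other 5 arrays. Scap, the escort, read 7.46, 7.79 and 8.15 in AAV-PIK3CD and 7.67, 7.85 and 8.14 in AAV-control and differed by -0.09 (SE 0.19). Like most of the enzymes it was highest on arrays 53 and 50 and lowest on arrays 51 and 48 of their groups.

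Insig1, the retention protein whose gene is a strong SREBP-2 target, read 10.76, 10.66 and 10.99 in AAV-PIK3CD and 10.77, 10.85 and 11.20 in AAV-control. Its difference of -0.14 (SE 0.15, 95% interval -0.47 to 0.19) was the lowest of the 27 genes, and it was the only gene below the control mean that stayed there with every single array left out (-0.23 to -0.01). Insig2, the paralogue that in liver is lowered by insulin and does not depend on SREBP-2 in the same way, read 8.87, 9.0 and 8.92 in AAV-PIK3CD and 8.67, 8.88 and 8.96 in AAV-control, a difference of 0.09 (SE 0.12). The values of both paralogues overlapped between the groups. The opposite signs of Insig1 and Insig2 thus lay within the error of each, and the difference between them was not tested.

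Genes of uptake and transport in the cell gave 3 above the control mean, 1 below and 1 level. Npc1, the membrane protein that lets cholesterol out of lysosomes, had the highest difference of them and the widest control spread. It read 7.73, 7.20 and 7.48 in AAV-PIK3CD and 6.69, 7.39 and 7.91 in AAV-control, a difference of 0.14 (SE 0.26) with a 2.33-fold span among the controls. Without array 48 its difference was -0.18. Npc2, its soluble partner in the lysosome, differed by 0.08 (SE 0.12), and its 6 values lay between 6.0 and 6.24. Tmem97, a membrane protein that binds NPC1 and follows sterol demand, read 8.60, 8.88 and 9.12 in AAV-PIK3CD and 8.87, 8.87 and 9.15 in AAV-control, a difference of -0.10 (SE 0.16). Stard4, which ferries sterol between membranes, differed by 0.00 (SE 0.13).

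Among genes that LXR raises, Mylip, the ubiquitin ligase that removes lipoprotein receptors, read 6.97, 6.77 and 6.87 in AAV-PIK3CD and 6.84, 6.74 and 6.79 in AAV-control, named after its values were seen, and differed by 0.08 (SE 0.12). Abcg5 and Abcg8 code for the 2 subunits of the pump that sends cholesterol into bile. Their starts lie 110 bases apart on chromosome 17 in opposite directions, taking the nearer of the Abcg8 windows. Abcg5 read 8.57, 8.23 and 8.34 in AAV-PIK3CD and 8.33, 8.31 and 8.29 in AAV-control, a difference of 0.07 (SE 0.13). Abcg8 read 7.82, 7.45 and 7.64 in AAV-PIK3CD and 7.51, 7.53 and 7.68 in AAV-control, a difference of 0.06 (SE 0.13). Array 51 was the highest of all 6 for each of these 3 genes. Without array 51 Abcg5 differed by -0.025 and Abcg8 by -0.028. Among the synthesis enzymes array 51 was the lowest AAV-PIK3CD array in 12 of 16. Its enzyme mean of 8.86 was not the lowest of the 6 arrays, as arrays 48 and 49 had 8.64 and 8.83. The sterol pumps Abca1 and Abcg1, which LXR raises as well, lay below the control mean, with differences of -0.16 (SE 0.12) and -0.15 (SE 0.17), named after their values were seen.

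**Figure D3:**
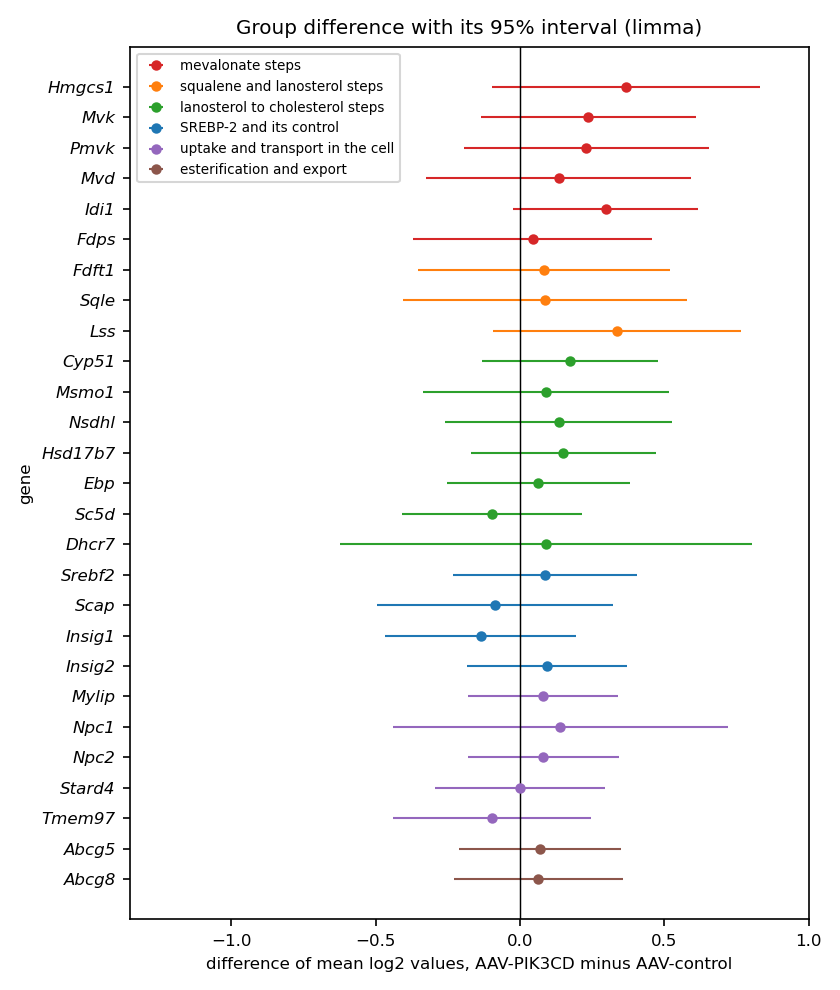
Difference of mean log2 values, AAV-PIK3CD minus AAV-control, for each of the 27 measured genes (points coloured by role) with its 95% interval from limma (bars); the vertical line marks 0. Every interval crosses 0, and the differences run from -0.14 (Insig1) to 0.37 (Hmgcs1).

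The pattern that these genes shared was an order of arrays, the same in both groups. Array 53 was the highest AAV-PIK3CD array in 16 of 16 synthesis enzymes and array 50 the highest AAV-control array in 16 of 16. Over all probe sets array 53 was highest in 34.5% and array 50 in 38.5%, and both together in 15.5%. Array 51 was the lowest AAV-PIK3CD array in 12 of the 16 and array 48 the lowest AAV-control array in 12, both together in 10 of the 16 and in 13.56% of all probe sets. The mean of the 16 enzymes was 8.86, 8.99 and 9.31 in AAV-PIK3CD arrays 51, 52 and 53, and 8.64, 8.83 and 9.24 in AAV-control arrays 48, 49 and 50. The low and the high array of each group therefore stood further apart than the groups did. Among the 11 genes that are not synthesis enzymes, array 53 was highest of its group in 5 and array 50 in 8.

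The enzymes varied together over the 6 arrays. For their 120 pairs the median Pearson r was 0.80 (range 0.32 to 0.996), with 61 pairs over 0.8 and 0 below 0. After the group means were taken off each gene, the median was 0.86, so the covariation held within the groups. The same enzymes had a median r of 0.02 with all probe sets outside the 30 genes, 3.29% of them over 0.8, and a median of 0.07 with the brighter 50% of probe sets. These are descriptions over 6 arrays that every pair shares, together with their RNA quality and labelling, and no p is attached. Fdps and Fdft1, neighbours in the chain, had an r of 0.996, Mvd and Msmo1 0.992, and Nsdhl and Hsd17b7 0.980. The median r of the enzymes ranged from 0.74 without array 53 to 0.89 without array 51, and was 0.92 without arrays 48 and 51.

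Srebf2 followed the enzymes that its product controls, with a median r of 0.88 over the 16 and 0.972 with Sqle. Scap had a median r of 0.80, Tmem97 0.72 and Insig1 0.70. For Insig1 the value was 0.89 after the group means were taken off. Insig2, Npc2 and Npc1 had medians of 0.68, 0.69 and 0.62, and Stard4 0.46. The pump and ligase genes raised by LXR had lower medians, of 0.20 for Abcg8, -0.08 for Mylip and -0.26 for Abcg5. Outside the set, the pump genes Abca1 and Abcg1 had medians of -0.09 and -0.73. Other genes that LXR raises were not examined as a group, so these medians do not describe LXR targets in general. Mylip and Abcg5 had an r of 0.89 with each other, Abcg5 and Abcg8 0.83, and Mylip and Abcg8 0.77. These values leaned on array 51 and were 0.61, 0.48 and 0.37 without it.

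**Figure D4:**
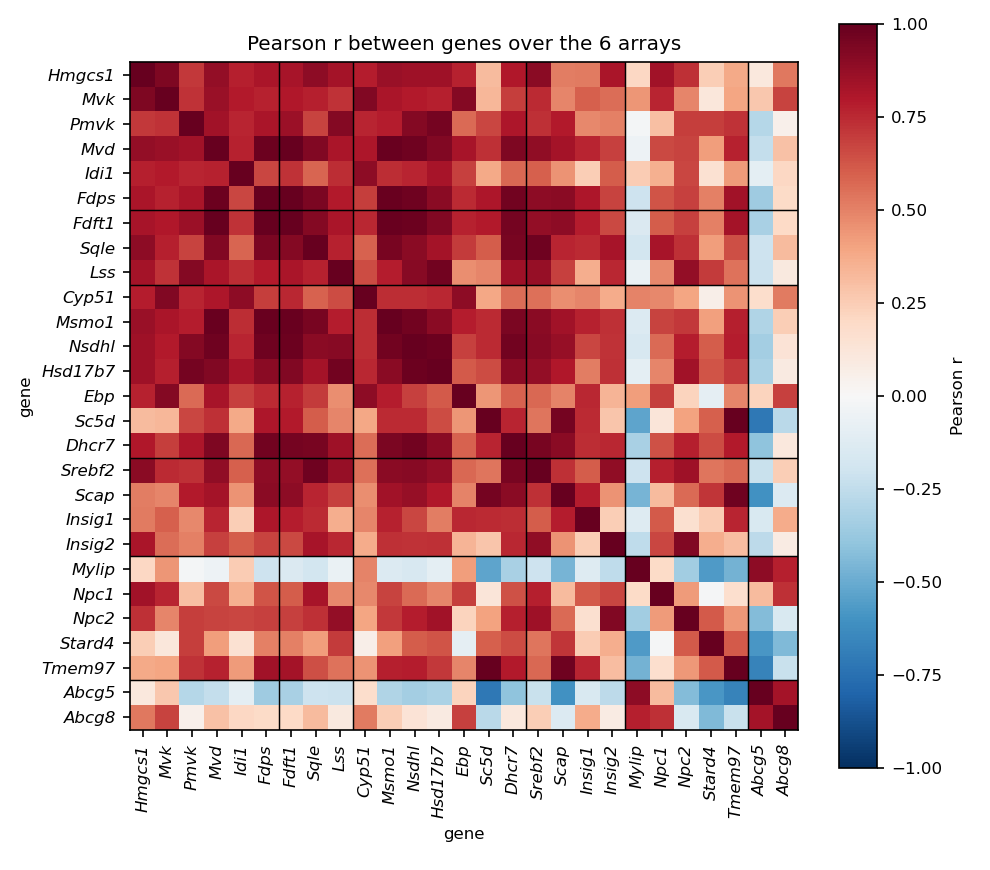
Pearson r over the 6 arrays between each pair of the 27 measured genes, both axes in the same order by role, with lines between roles. The block of synthesis enzymes is red throughout (lowest r 0.32), and the rows of Mylip, Abcg5 and Abcg8 are pale or blue against it.

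Against Hmgcs1, taken as the anchor because it is the first enzyme of the set that was measured, 26 of 26 genes had an r above 0 over the 6 arrays, and 13 had an r over 0.8, of which 10 were enzymes. Of the 22179 probe sets outside the set, 51.5% had an r above 0 with Hmgcs1 and 2.77% an r over 0.8. Exact permutation over the 720 pairings gave a 2-sided p under 0.05 for 11 of the 26, against 4.41% of the probe sets outside the set, and 1 after Benjamini-Hochberg adjustment over the 26 relations. That was Mvk, with r = 0.931 (exact p = 0.0014, adjusted p = 0.0361) and rho = 1.0 (exact p = 0.0028, adjusted p = 0.0722), and r was 0.947 without arrays 48 and 49, the 2 farthest from the median of Hmgcs1. Srebf2 had r = 0.906 (exact p = 0.0181, adjusted p = 0.111), rho = 0.771 (exact p = 0.103) and r = 0.798 without those arrays. Sqle had r = 0.893 (exact p = 0.0194, adjusted p = 0.111), rho = 0.771 (exact p = 0.103) and r = 0.780 without them. Without arrays 48 and 49, r fell most for Insig2 (0.817 to -0.237), Npc2 (0.734 to 0.00), Npc1 (0.838 to 0.472) and Idi1 (0.776 to 0.444). For Insig1 it was 0.518 over the 6 arrays and 0.849 without those arrays.

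Genes of fatty acid synthesis, which the sister factor SREBP-1 raises in liver after feeding, were also highest on arrays 53 and 50 in their list mean. The mean of 10 measured genes was 8.67, 9.09 and 9.50 in AAV-PIK3CD and 8.84, 9.16 and 9.53 in AAV-control, with 2 genes above the control mean, 8 below and a median difference of -0.10. The difference in sign between this median and that of the synthesis enzymes was not tested. Rank products and limma called 0 of them, with 1 and 0 at an unadjusted p under 0.05. Their median r with the synthesis enzymes was 0.72, and 0.87 after the group means were taken off. Acss2, which makes acetyl-CoA from acetate, had a median r of 0.92 with the enzymes and differed by 0.17 (SE 0.22), and Elovl6, a fatty acid elongase, had 0.55 and differed by -0.29 (SE 0.21). Fasn, fatty acid synthase, read 9.0, 9.32 and 10.02 in AAV-PIK3CD and 8.96, 9.66 and 10.32 in AAV-control, named after its values were seen.

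A list of other cholesterol genes, written from general knowledge of the pathway, had 15 measured members, of which 4 lay above the control mean and 10 below, with a median difference of -0.06. Rank products and limma called 0, with 1 and 1 at an unadjusted p under 0.05. That gene was Ggps1, which makes geranylgeranyl diphosphate from the product of Fdps. It read 6.92, 6.98 and 6.77 in AAV-PIK3CD and 6.44, 6.37 and 6.86 in AAV-control, a difference of 0.33 (SE 0.15; adjusted p = 0.843 by rank products and 0.932 by limma). Osbp, a sterol exchange protein, differed by -0.18 (SE 0.13), and its r with the 16 enzymes was below 0 for each, with a median of -0.68. The list as a whole had a median r of 0.34 with the enzymes. Among 12 clock and rhythmic genes, read because sterol synthesis runs with the hour and with meals, 0 were called by rank products or limma, and 3 and 2 had an unadjusted p under 0.05, where the shares over all probe sets were 5.7% and 5.08%. Per1, a repressor of the clock, read 5.05, 5.11 and 4.92 in AAV-PIK3CD and 4.21, 4.76 and 4.49 in AAV-control, so that the groups did not overlap (difference 0.54, SE 0.15; adjusted p = 0.493 by rank products and 0.932 by limma). The output factor Dbp differed by -0.62 (SE 0.38; adjusted p = 0.269 by rank products) and the repressor Cry1 by -0.37 (SE 0.14; adjusted p = 0.835 by rank products). Cry1 read 6.79, 6.51 and 6.47 in AAV-PIK3CD and 6.82, 6.88 and 7.17 in AAV-control, so its groups did not overlap either. Over all probe sets the groups did not overlap in 9.44%. The median r of the list with the enzymes was 0.11, and its members ran from -0.57 for Clock to 0.73 for Per2 (both named after their values were seen), which had 0.90 after the group means were taken off.

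**Figure D5:**
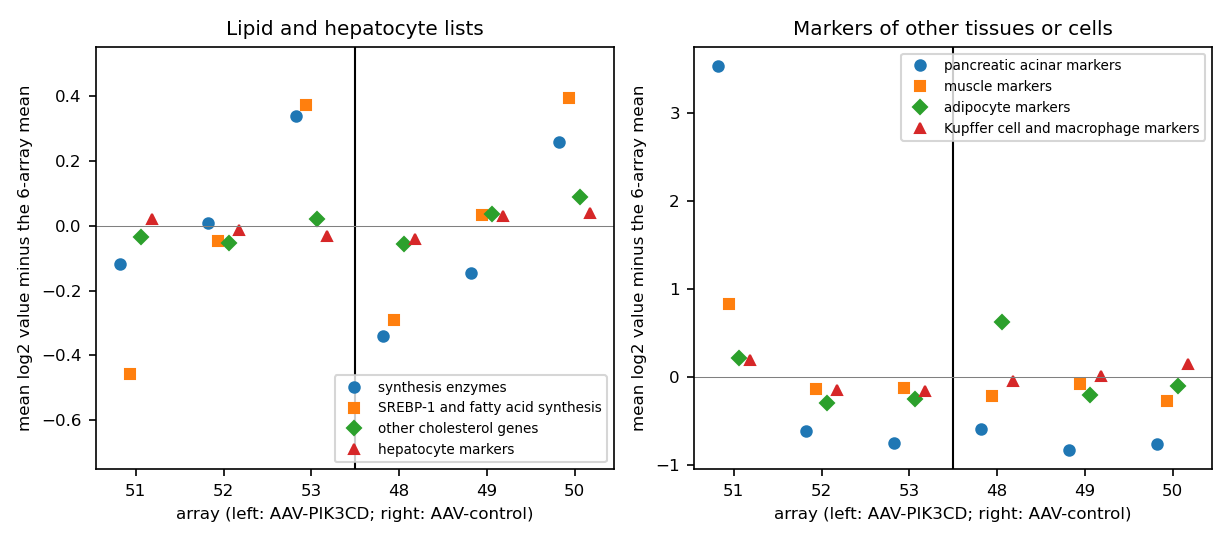
Mean RMA log2 value of each gene list on each array, as the difference from the list's mean over the 6 arrays, with AAV-PIK3CD arrays left of the line and AAV-control arrays right of it; the panels have different y scales. At left the synthesis enzymes and the fatty acid genes are highest on arrays 53 and 50; at right the acinar and muscle markers are high on array 51.

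Markers of other tissues and cells also differed between the arrays. In array 51 the pancreatic acinar markers had a list mean of 8.47, against 4.32 and 4.19 in the other AAV-PIK3CD arrays and 4.35, 4.11 and 4.18 in AAV-control, with 9 of 9 markers highest there and Amy2a5, pancreatic amylase, at 12.10. Muscle markers were highest in array 51 as well, in 6 of 6, with a mean of 4.82 against 3.72 to 3.90 in the other 5 arrays. The 4 adipocyte markers averaged 3.90, 3.39 and 3.43 in AAV-PIK3CD and 4.31, 3.47 and 3.59 in AAV-control, with array 48 the highest of all 6. That mean came from 2 of the 4 markers, Adipoq at 5.20 and Retn at 5.99, while Lep was highest on array 49 and Plin1 on array 52. Kupffer cell markers averaged 6.59, 6.26 and 6.25 in AAV-PIK3CD and 6.35, 6.42 and 6.55 in AAV-control. In whole tissue, fewer cells of a type and less RNA per cell cannot be told apart. With arrays 48 and 51 left out the median difference of the enzymes was 0.11, against 0.13 with them, and rank products called 0 of the 27 genes. With single arrays left out, that median was 0.013 without array 48, -0.0025 without array 53, 0.24 without array 51 and 0.31 without array 50. The part of these tissues in the order of arrays was not tested. The arrays that were high for the enzymes, 53 and 50, had acinar means of 4.19 and 4.18 and muscle means of 3.86 and 3.72. Within each group, the list mean of cholangiocyte markers, from bile duct cells, was highest on these arrays and lowest on arrays 51 and 48. The mean of the enzymes had the same order. The means of the 5 measured markers were 4.25, 4.48 and 4.70 in AAV-PIK3CD and 4.10, 4.33 and 4.41 in AAV-control. Of the 5, 1 lay above the array median. In AAV-control only Sox9 was highest on array 50, at 7.10. Krt19 and Epcam were highest on array 49, and Krt7 and Cftr on array 48. In AAV-PIK3CD Krt7 was highest on array 52 and the other markers on array 53. The part of cholangiocyte markers in the order of arrays was not tested.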

How the data were processed

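Gene expression was measured on 6 Clariom S mouse arrays from 100 ng of biotin-labelled total RNA each. The deposited values are log2 values with 2 decimals that the authors made by RMA, which corrects background, gives the arrays a common distribution and summarises the probes of a set. The software version, annotation and summary level are not given in the sources used here. Array medians lay between 4.81 and 4.87. Arrays have no read depth, and their number, 3 per group, limits the precision.

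Samples were grouped by their labels. All 22206 probe sets were tested with no filter, and a gene table gave 1 symbol to 19572. The other 2634 had no symbol or more than 1 symbol there, and were not assigned to a gene. Rank products ranked the 9 pairs of an AAV-PIK3CD and an AAV-control array against 1000 seeded shuffles, with 2-sided p-values and Benjamini-Hochberg adjustment over all probe sets at 0.05. Limma 3.58.1 in R 4.3.3 gave standard errors, 95% intervals and a second test. Single genes were also compared by a 2-sided exact permutation test. Each difference is the mean log2 value of AAV-PIK3CD less that of AAV-control, and probe sets are not compared with each other in level. Alternatives were limma, the methods' t-test, quantile normalization, median centring, leaving out the dimmest 50% of probe sets, 1 probe set per symbol, each array left out and, chosen after seeing the data, arrays 48 and 51 left out together. The mean of all probe sets of a gene changed nothing, as each gene had 1.

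Values in every array were given for Hmgcs1, Sqle, Insig1 and Srebf2, for genes with an unadjusted p under 0.05, and for the highest and lowest difference of each role. Values per array of any other gene were added after they were seen. The genes, lists and rules were chosen with earlier results of these data known. On simulated arrays with 50 changed genes at each of 0.5, 1, 2 and 3 log2 units, rank products recovered 0, 46, 50 and 50 and limma 4, 34, 50 and 50 of them. With no array left out, the differences of the measured genes of the set, from -0.14 to 0.37, were smaller in size than the smallest of these. Some differences of genes outside the set, such as Per1 and Dbp, were larger than that. Other steps ran in Python 3.11.15 (scipy 1.17.1, numpy 2.4.6, matplotlib 3.10.9, pandas 2.3.3).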

Additional observations from a re-analysis of the deposited data

How the results depend on the processing

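Rank products called 0 of the 27 genes in every setting tried, limma called 0 over the 6 arrays, and the methods' t-test gave 0 before and after Benjamini-Hochberg adjustment, so no call could be lost. The number of calls with each array left out was 0 to 0 in each direction. The median difference of the 27 genes was 0.15 after quantile normalization and 0.05 after median centring, and 0.00 (without array 48) to 0.24 (without array 50) with 1 array left out. That of the 16 enzymes was 0.18, 0.10 and -0.0025 (without array 53) to 0.31 (without array 50). The number of genes above the control mean was 14 (without array 48) to 24 (without array 51), and 18 without arrays 48 and 51. The median r of enzyme pairs was 0.736 to 0.892 with 1 array left out.

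Lss was 0.16 (without array 53) to 0.49 (without array 51) and Pmvk 0.0067 (without array 53) to 0.40 (without array 51). With each array left out, 10 genes stayed above and 1 stayed below the control mean, and 16 changed sign. The ranges of those 16 were -0.025 to 0.145 for Abcg5, -0.028 to 0.157 for Abcg8, -0.27 to 0.41 for Dhcr7, -0.022 to 0.19 for Ebp, -0.075 to 0.28 for Fdft1, -0.10 to 0.23 for Fdps, -0.065 to 0.30 for Msmo1, -0.023 to 0.36 for Mvd, -0.18 to 0.43 for Npc1, -0.01 to 0.28 for Nsdhl, -0.195 to 0.015 for Sc5d, -0.26 to 0.083 for Scap, -0.17 to 0.34 for Sqle, -0.045 to 0.19 for Srebf2, -0.08 to 0.09 for Stard4 and -0.22 to 0.037 for Tmem97. Most of the changes of sign came without array 48 (8 genes), array 53 (7) or array 51 (5). Without arrays 48 and 51 together, Sqle differed by -0.09, Dhcr7 by -0.02, Npc1 by -0.31, Abcg5 by -0.015 and Abcg8 by -0.06. The cause was not tested. No paired analysis was possible because the groups share no replicate numbers.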
